A study of Mus musculus with 6 samples.

Results

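Glucose enters a cell through a membrane carrier and is broken down to pyruvate in the cytosol, a chain of reactions that yields ATP without oxygen. The transcripts described here are 10 genes of that chain, of 50600 genes in the deposited table. They were chosen by name: the glucose carrier Slc2a1, the hexokinases Hk1 and Hk2, the regulatory enzyme Pfkfb3, the phosphofructokinase Pfkl, the later enzymes Pgk1 and Pkm, the lactate dehydrogenases Ldha and Ldhb, and the pyruvate dehydrogenase kinase Pdk4. All 10 passed the filter on low counts that left 13475 protein-coding genes for testing.

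The RNA came from the cardiac side population (SP), heart cells that pump out the Hoechst dye, sorted from suspensions depleted of cardiomyocytes and erythrocytes. The wild-type (wt) group was C57BL/6NRj and the other was C57BL/6Flt3Ltml/mx on a C57BL/6N background, whose flt3L-/- allele is carried in the germline and so by every cell type of the heart. Mice of both groups were 8 to 12 wk old and received no treatment before the sort that the sources name. Each group had 3 libraries, each from the pooled hearts of 4 mice, and 1 wt and 1 flt3L-/- pool were sorted on each of 3 days, which gives pairs 1, 2 and 3. Each p-value below therefore measures the spread between pools on these days, not between single mice.

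Depth was similar across the 6 libraries, with 24370913 to 31145519 counted reads each. Values are CPM, the reads of a gene per fixed total of reads in its library, after scaling of library sizes with TMM, a method that centres the libraries on most of their genes. Transcripts of Abcg2, the pump that gives SP cells their dye efflux, were present in every library, at 147, 204 and 196 CPM in wt and 218, 171 and 274 CPM in flt3L-/-. The summed level of 10 endothelial markers was 7833 to 9627 CPM in wt and 7786 to 10391 CPM in flt3L-/-, and that of 10 fibroblast markers 22321 to 44505 CPM and 10257 to 33675 CPM, so the sorted pools held RNA of both kinds. The study names the sequenced material as freshly isolated SP cells. The sources do not say outright whether the complete SP or its Sca1+/CD31- fraction was sorted for sequencing, and a gate against CD31 would remove endothelial cells. Transcripts of Pecam1, the gene of CD31, were present in every library, at 873 to 1524 CPM. Reads of Flt3l, the targeted gene, were not lower in the libraries labelled flt3L-/-, at 13.6, 12.4 and 14.4 CPM against 8.67, 10.8 and 12.1 CPM in wt. An annotated gene that overlaps Flt3l, Gm45713, holds 22.1% of its exon bases, and the counts do not show which part of the locus the reads came from. The group names below are therefore those of the labels, and a direction holds for the libraries labelled flt3L-/-.

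Hexokinase traps glucose in the cell as glucose 6-phosphate, phosphofructokinase commits it to glycolysis, and pyruvate kinase releases the pyruvate. Lactate dehydrogenase turns pyruvate into lactate, while pyruvate dehydrogenase sends it into the mitochondrion, a step that the Pdk kinases switch off. The adult heart muscle burns mostly fatty acids, whereas endothelial cells and many quiescent progenitor cells are known to rely on glycolysis. Hypoxia-inducible factors, which switch many of these genes on when oxygen is low, bind DNA at sites that hold the letters ACGTG.

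The promoter letters are shown for 4 genes that are textbook targets of those factors, namely Slc2a1, Ldha, Pgk1 and Hk2. RefSeq sequence on GRCm38.p6 was used, with 250 bases before each annotated start, and both strands were searched for ACGTG. Each printed run goes 5′ to 3′ along the gene from 230 to 21 bases before the start, with ACGTG, or CACGT where it lies on the other strand, in capitals. The palindrome CACGTG holds the letters on both strands and so counts 2 times. The windows lie on Slc2a1 (chr4:119108515-119108724, plus strand), Ldha (chr7:46845574-46845783, plus strand), Pgk1 (chrX:106186870-106187079, plus strand) and Hk2 (chr6:82774475-82774684, minus strand).
Slc2a1: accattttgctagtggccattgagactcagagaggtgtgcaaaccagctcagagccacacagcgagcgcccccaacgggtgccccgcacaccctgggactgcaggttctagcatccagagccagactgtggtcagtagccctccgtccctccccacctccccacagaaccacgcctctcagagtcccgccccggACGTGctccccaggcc
Ldha: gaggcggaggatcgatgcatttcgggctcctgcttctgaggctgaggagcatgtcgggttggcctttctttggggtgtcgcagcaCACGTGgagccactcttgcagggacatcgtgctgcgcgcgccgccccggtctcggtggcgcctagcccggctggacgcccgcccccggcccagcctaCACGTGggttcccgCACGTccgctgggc
Pgk1: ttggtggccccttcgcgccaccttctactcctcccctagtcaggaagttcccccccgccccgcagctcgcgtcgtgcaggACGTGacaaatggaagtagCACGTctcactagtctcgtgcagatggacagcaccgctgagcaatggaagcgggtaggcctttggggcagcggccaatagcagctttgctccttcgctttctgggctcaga
Hk2: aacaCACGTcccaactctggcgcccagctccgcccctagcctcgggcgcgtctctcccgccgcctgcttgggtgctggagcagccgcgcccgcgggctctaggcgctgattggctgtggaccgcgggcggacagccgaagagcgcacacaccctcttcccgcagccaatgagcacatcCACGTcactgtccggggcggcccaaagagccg

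The Ldha window printed held the letters 5 times, counting each of its 2 palindromes 2 times, against 2 times in Pgk1, 2 times in Hk2 and 1 time in Slc2a1. RefSeq gives Ldha another start, and the window before it held the letters 0 times. Over all 10 genes, 6 had ACGTG in at least 1 of their windows, the other two being Pfkfb3 and Pkm, and 7 of the 14 windows held it. It occurred in 16.6% of the 32851 mouse promoter windows of the same length. CACGTG was in 2 of the 14 windows, against 6.02% of all windows. GTAAACA, the core letters that forkhead factors bind, was in 0 of the 14, against 3.17%. A match describes the letters and not a bound site, and no binding was measured in these cells.

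Levels were first compared among the 10 genes on the scale of CPM per kb of exon, since long transcripts collect more reads. Ldha stood highest, with a mean of 196 CPM per kb over the 6 libraries (SD 33.3, n = 6), above 98.7% of all genes tested. Pkm followed at 110 CPM per kb (SD 9.85), and every library of Ldha lay above every library of Pkm. Hk1 at 26.1, Pfkl at 23.8 and Ldhb at 19.5 CPM per kb came next, and neighbours in this order overlapped in their ranges. Pgk1 (12.3), Slc2a1 (10.9), Pfkfb3 (9.07) and Pdk4 (8.64) also overlapped with their neighbours. The place of Pgk1 in this order is uncertain, because reads that fit it and an annotated copy equally well were assigned at random, as described below. Hk2 was the lowest at 1.59 CPM per kb, above only 24.0% of the genes tested, and all of its libraries lay under those of Pdk4. From Ldha to Hk2 the mean level spanned 123-fold. Transcripts of Pkm and Ldha therefore stood above those of Slc2a1 and the hexokinases in every library. This did not hold for the other lactate dehydrogenase, since Ldhb averaged 19.5 CPM per kb and Hk1 26.1.

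**Figure D1:**
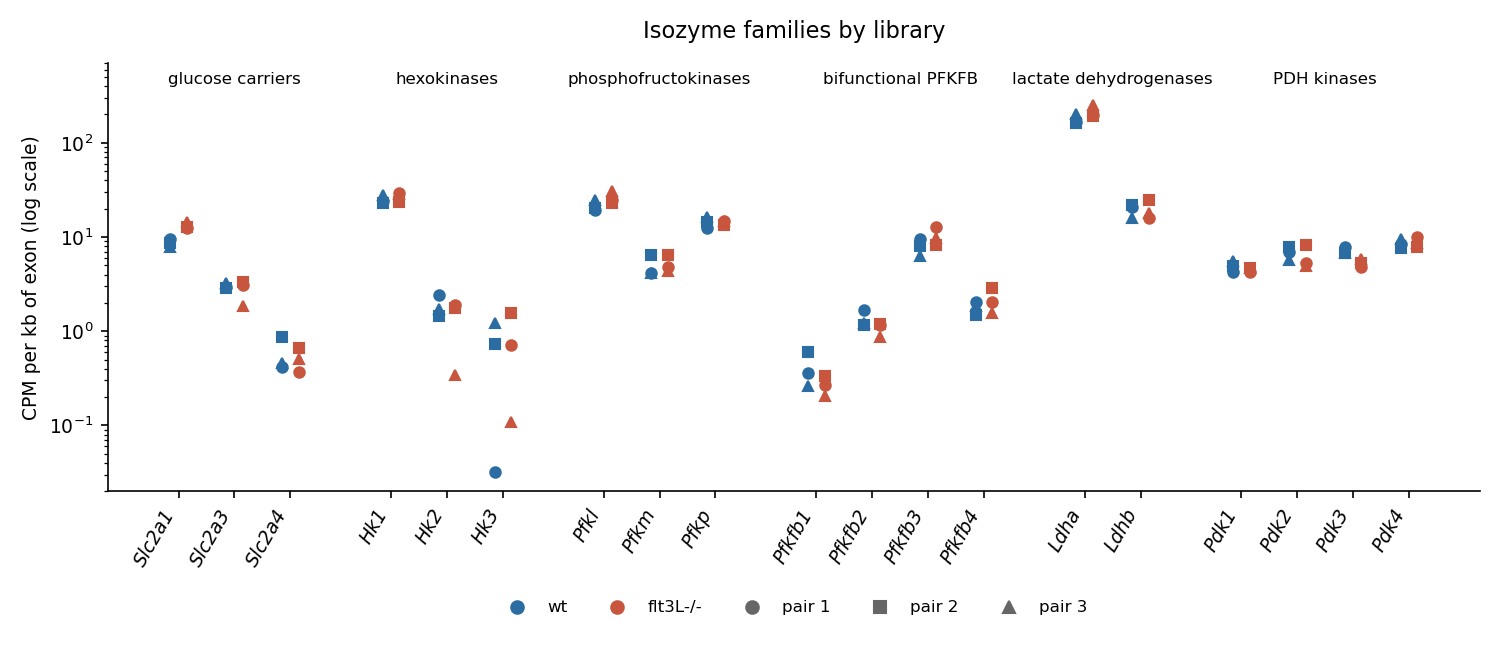
Level of the isozymes of 6 families in each library, in CPM per kb of exon on a log axis, with wt in blue, flt3L-/- in red and the 3 sorting pairs as circles, squares and triangles. Ldha stands above 160 CPM per kb in all 6 libraries, and Hk2 in the flt3L-/- library of pair 3 lies at 0.345 CPM per kb.

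In most families 1 isozyme led. Among the classical glucose carriers, Slc2a1, the basal glucose carrier of endothelium, averaged 10.9 CPM per kb. The neuronal-type carrier Slc2a3 averaged 2.88 CPM per kb, and Slc2a4, the insulin-responsive carrier of heart muscle and fat, 0.547 CPM per kb. The less typical carriers Slc2a10 and Slc2a8 came near Slc2a1, at 9.58 and 7.98 CPM per kb over both groups. Before division by length, the wt libraries held 52.4, 36.0 and 27.3 CPM of Slc2a10 and 33.3, 30.1 and 27.2 CPM of Slc2a1. Slc2a1 therefore did not lead all carriers in wt. Hk1, the housekeeping hexokinase, exceeded Hk2, the inducible form of muscle and growing cells, in every library. Of the phosphofructokinases, the liver-type Pfkl averaged 23.8 CPM per kb, the platelet-type Pfkp 14.4 and the muscle-type Pfkm 5.05. Pfkfb3, which makes the fructose 2,6-bisphosphate that activates phosphofructokinase, stood above its relatives Pfkfb4 (1.98), Pfkfb2 (1.22) and Pfkfb1 (0.341 CPM per kb). The Pdk family was nearly even, with Pdk4 at 8.64, Pdk2 at 6.53, Pdk3 at 6.21 and Pdk1 at 4.71 CPM per kb, and their ranges overlapped from one gene to the next.

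The groups were then compared gene by gene with edgeR's quasi-likelihood test, with the sorting day as a term, and p-values were adjusted over all 13475 genes. None of the 10 genes had an adjusted p under 0.05. The background was the same, with 0% of all genes called, 484 genes at an unadjusted p under 0.05 and 21 genes called by DESeq2's Wald test, none of them among the 10. The study's own edgeR fit lists genes with an adjusted p under 0.05, most of them lower in flt3L-/-. The fit here did not reproduce that list, and the reason was not tested. The unadjusted threshold was passed by 1 of the 10 genes, Slc2a1, against 3.59% of all genes of which 1.11% were higher in flt3L-/- and 2.49% lower.

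Of the 10 genes, Slc2a1 had the largest difference relative to its error. The gene lies at chr4:119108711-119137983 (GRCm38), on the plus strand, and was counted with 730 to 1294 reads per library. In wt it measured 33.3, 30.1 and 27.2 CPM in pairs 1, 2 and 3, and in flt3L-/- 43.4, 44.8 and 51.2 CPM. The 3 flt3L-/- libraries all lay above the 3 wt libraries, so that the groups did not overlap, which was true of 6.45% of all genes in either direction and of 3.53% with flt3L-/- higher. Within pairs the log2 differences were 0.38, 0.57 and 0.91. The fitted log2 fold change was 0.62 (SE 0.165, 95% interval 0.19 to 1.05), a level 1.54-fold that of wt, with an edgeR p of 0.0140 and an adjusted p of 0.973. By unadjusted p it was number 64 of the genes tested. Without pair 3 the log2 fold change was 0.48 and the edgeR p 0.0703.

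Marker lists of other cell types were read in the same libraries, beside the 14.2% of all genes that were higher and the 11.5% that were lower in 3 of 3 pairs. Of the lists read here, the cardiomyocyte sum was the one whose groups did not overlap, at 146 to 217 CPM in wt and 220 to 258 CPM in flt3L-/-, with 4 of 10 tested genes higher in 3 of 3 pairs. Its log2 difference was 0.77, 0.25 and 0.10 in pairs 1, 2 and 3. That of the endothelial sum was 0.41, -0.31 and 0.12, with 1 of 10 genes higher and 0 lower in 3 of 3 pairs. Fibroblast markers were lower in 3 of 3 pairs for 4 of 10 genes, namely Pdgfra, Col1a1, Col1a2 and Col3a1. Those of pericytes and smooth muscle were lower for 3 of 10, but both sums were higher in flt3L-/- in pair 2. Lymphocyte and natural killer markers were lower in 3 of 3 pairs for 3 of 6 tested genes and higher for 0. Their sums overlapped, at 55.0 to 243 CPM in wt and 39.5 to 138 CPM in flt3L-/-, and pair 2 was again higher in flt3L-/-. Gsn made up most of the fibroblast sum, and in pair 2 it measured 18538 CPM in wt and 21864 CPM in flt3L-/-. Erythroid markers, with 1 of 5 higher in 3 of 3 pairs, summed to 243 to 419 CPM and 372 to 491 CPM, and their pairs differed by 1.01, 0.0091 and 0.033. The immediate early and heat shock genes, which dissociation can induce, had 2 of 10 higher in 3 of 3 pairs and 0 lower, and their sums overlapped between the groups. The part of these cells and genes in the Slc2a1 difference was not tested. In such bulk pools, fewer cells of a type and less RNA per cell cannot be told apart.

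**Figure D2:**
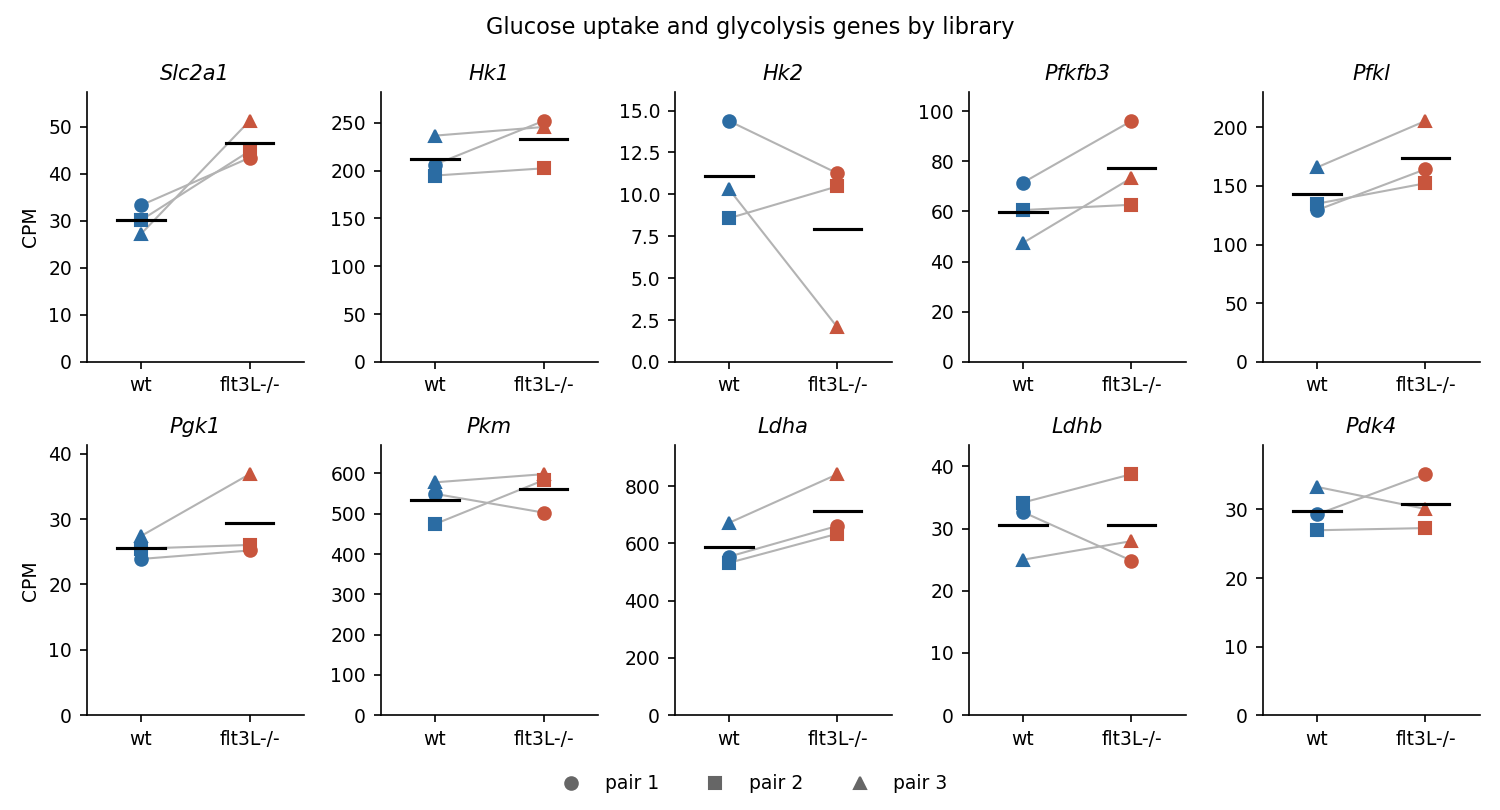
CPM of the 10 genes in each library, with wt in blue, flt3L-/- in red, the marker shape and the grey line giving the sorting pair, and the black bar the mean of 3 libraries. Slc2a1 is the gene whose groups do not overlap, at 27.2 to 33.3 CPM in wt and 43.4 to 51.2 CPM in flt3L-/-.

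The hexokinases behaved differently from each other. Hk1 (chr10:62268855-62379908) measured 206, 195 and 237 CPM in wt and 252, 202 and 246 CPM in flt3L-/-. Each flt3L-/- library was above the wt library of its pair, by 0.29, 0.055 and 0.054 on the log2 scale, but the groups overlapped. The fitted log2 fold change was 0.13 (SE 0.130, edgeR adjusted p = 0.973), and 0.054 without pair 1.

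Hk2 (chr6:82725025-82774454) measured 14.4, 8.58 and 10.3 CPM in wt and 11.3, 10.5 and 2.06 CPM in flt3L-/-. The flt3L-/- library of pair 3 stood apart with 52 reads, against 221 to 370 reads in the other 5 libraries, while pairs 1 and 2 differed by -0.35 and 0.29 on the log2 scale. The fitted log2 fold change was -0.75 (SE 0.565, 95% interval -2.22 to 0.72, edgeR adjusted p = 0.973), and without pair 3 it was -0.035. In pairs 1, 2 and 3 the fibroblast markers summed to 44505, 29789 and 22321 CPM in wt and 22071, 33675 and 10257 CPM in flt3L-/-, and the macrophage and monocyte markers to 128, 784 and 2006 CPM and to 526, 1194 and 370 CPM. The library with 52 Hk2 reads had the lowest fibroblast sum, which was mostly Gsn, while Hk2 in the other libraries followed neither sum in order. What part these cells had in the Hk2 reads was not tested.

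Both genes of the phosphofructokinase step measured higher in flt3L-/- in each pair without passing the test. Pfkfb3 (chr2:11471433-11554077) measured 71.5, 60.6 and 47.5 CPM in wt and 96.1, 62.7 and 73.4 CPM in flt3L-/-. The differences within pairs were uneven, at 0.43, 0.049 and 0.63 on the log2 scale, and the groups overlapped. In the fit its log2 fold change was 0.37 (SE 0.162, 95% interval -0.055 to 0.79), with an edgeR p of 0.0748. Without pair 3 it was 0.24.

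Pfkl (chr10:77986947-78010083) measured 129, 135 and 166 CPM in wt and 164, 152 and 205 CPM in flt3L-/-. Here the pairs were close to each other, at 0.34, 0.18 and 0.31, and the overlap came from the wt library of pair 3, which was above 2 flt3L-/- libraries. Its fitted log2 fold change was 0.28 (SE 0.122, 95% interval -0.041 to 0.59), with an edgeR p of 0.0751. No 81-base stretch of either transcript, the length of a read, occurs in another annotated gene.

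Of the later enzymes, Pgk1, which makes the first ATP of the chain, was the least certain measurement. The gene (chrX:106187100-106203699) measured 23.9, 25.5 and 27.4 CPM in wt and 25.2, 26.1 and 36.9 CPM in flt3L-/-, with the flt3L-/- library of pair 3 above the rest and log2 differences of 0.076, 0.031 and 0.43 within pairs. A processed pseudogene on chromosome 12, Pgk1-rs7, was counted with more reads than Pgk1 in every library, 1117 to 1636 against 614 to 932. Of the 81-base stretches of Pgk1, 52.5% occur letter for letter in Pgk1-rs7, and a read that fits both places equally well was assigned to either at random. The share of reads of the pair of genes that fell on Pgk1 was between 34.1% and 36.7% in all 6 libraries. The fitted log2 fold change was 0.18 (SE 0.159) for Pgk1 and 0.20 for the reads of both genes summed, which measured 67.3, 69.5 and 78.7 CPM in wt and 71.3, 76.4 and 102 CPM in flt3L-/-. Without pair 3 the value for Pgk1 was 0.053.

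Pkm, the pyruvate kinase of most tissues outside liver and red cells, lies at chr9:59656368-59679375. It measured 550, 474 and 578 CPM in wt and 503, 583 and 598 CPM in flt3L-/-. Pair 1 differed by -0.13 and pairs 2 and 3 by 0.30 and 0.050 on the log2 scale, and the groups overlapped. Fitted over all pairs, the log2 fold change was 0.073 (SE 0.153, 95% interval -0.33 to 0.47). Another annotated gene, Gm49759, shares 15.3% of the exon bases, and its M1 and M2 splice forms are not separated in counts per gene.

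Ldha, the subunit of lactate dehydrogenase that prevails in glycolytic tissue, lies at chr7:46841475-46855627. It measured 553, 532 and 671 CPM in wt and 661, 634 and 841 CPM in flt3L-/-. The 3 pairs gave nearly the same difference, 0.26, 0.25 and 0.33 on the log2 scale, an SD of 0.041, while the libraries of pair 3 were the highest of each group and the groups overlapped. Over the pairs the fit gave a log2 fold change of 0.28 (SE 0.134, 95% interval -0.070 to 0.63), with an edgeR p of 0.0945 and an adjusted p of 0.973.

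Ldhb, the subunit that prevails in heart muscle, lies at chr6:142490249-142507957. It measured 32.7, 34.2 and 24.99 CPM in wt and 24.8, 38.7 and 28.0 CPM in flt3L-/-. Of the 81-base stretches of Ldhb, 11.1% also occur in another annotated gene, Gm5514. No direction was shared by the pairs, at -0.39, 0.18 and 0.16, and the fitted log2 fold change was -0.016 (SE 0.182, 95% interval -0.49 to 0.46). Pdk4 (chr6:5483351-5496309), the kinase of this family that fasting and fatty acids induce, measured 29.3, 27.0 and 33.3 CPM in wt and 35.1, 27.3 and 30.1 CPM in flt3L-/-. Its pairs differed by 0.26, 0.017 and -0.15, with a fitted log2 fold change of 0.045 (SE 0.155, 95% interval -0.36 to 0.45). For Ldhb and Pdk4 the ranges of the groups overlapped and the intervals held values of either sign.

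**Figure D3:**
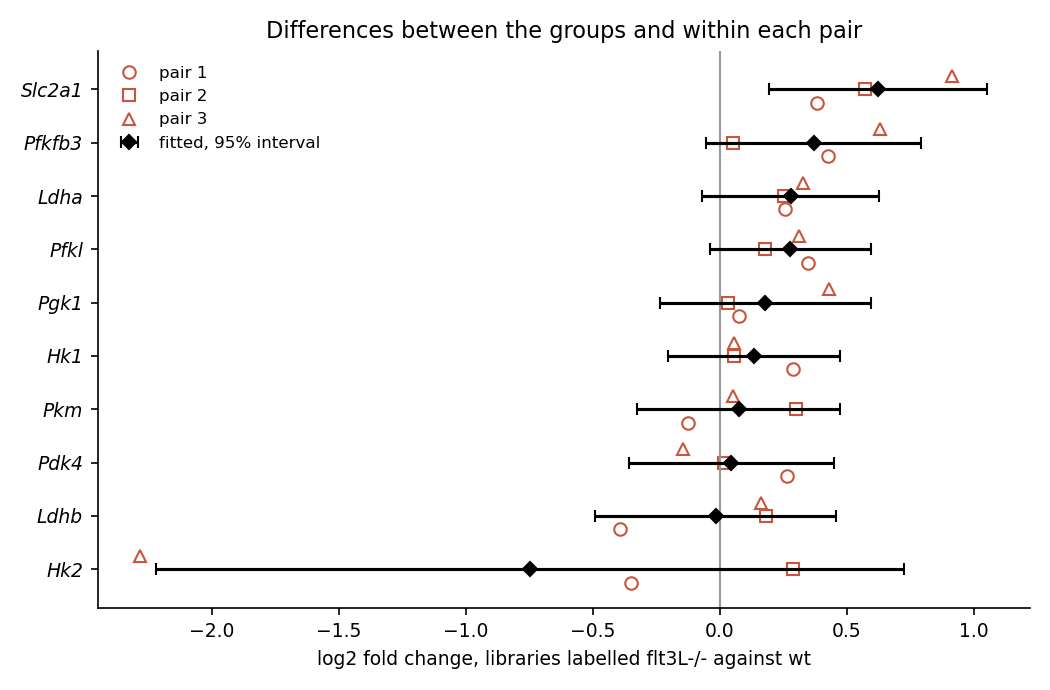
Log2 fold change of the libraries labelled flt3L-/- against wt for the 10 genes, with the fitted value and its 95% interval in black and the 3 sorting pairs as open symbols. The interval of Slc2a1 lies above 0, from 0.19 to 1.05, and that of Hk2 is the widest, from -2.22 to 0.72.

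By count, 6 of the 10 genes were higher in flt3L-/- in 3 of 3 pairs, namely Slc2a1, Hk1, Pfkfb3, Pfkl, Pgk1 and Ldha, and 0 were lower in 3 of 3. Over all genes tested, 14.2% were higher in 3 of 3 pairs and 11.5% were lower, 25.7% in all. A log2 fold change above 0 was fitted for 8 of the 10 genes and for 50% of all genes. The median log2 fold change of the 10 genes was 0.16, and their median within pairs 1, 2 and 3 was 0.26, 0.18 and 0.24. All genes tested had a median of -0.00027, with 0.040, 0.0035 and 0.014 within the pairs. The 10 genes were measured in the same 6 libraries and are not replicates of each other.

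Ratios of isozymes within a library do not depend on how libraries are scaled to each other, and were formed on CPM per kb. An exact permutation test over the 3 pairs cannot give a two-sided p under 0.25. The ratio of Ldha to Ldhb was 8.04, 7.38 and 12.7 in wt and 12.6, 7.76 and 14.3 in flt3L-/-, higher in each pair, with a mean log2 difference of 0.30 (SD 0.31, exact permutation p = 0.25). Without pair 1 that difference was 0.12. The ratio of Pfkl to Pfkm plus Pfkp was 1.15, 0.975 and 1.20 in wt and 1.26, 1.15 and 1.62 in flt3L-/-, also higher in each pair, by 0.26 on average (SD 0.15, exact permutation p = 0.25).

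The ratio of Pdk4 to the sum of Pdk1, Pdk2 and Pdk3 was 0.438, 0.393 and 0.523 in wt and 0.699, 0.426 and 0.557 in flt3L-/-. It was higher in each pair by 0.29 on average (SD 0.33, exact permutation p = 0.25) and by 0.10 without pair 1, while Pdk4 itself had no shared direction and Pdk3 was lower in each pair. The ratio of Hk1 to Hk2 was 10.04, 15.9 and 16.0 in wt and 15.7, 13.5 and 83.5 in flt3L-/-, where the last value is the library with 52 Hk2 reads (exact permutation p = 0.5). Its mean log2 difference was 0.93, and 0.20 without pair 3 and 1.51 without pair 2. In each ratio the ranges of the groups overlapped.

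The rest of the pathway was read from a list of 67 further genes, of which 52 were tested. None passed the adjusted threshold, and 0 had an unadjusted p under 0.05, against 3.59% of all genes. Of the 52, 7 were higher in 3 of 3 pairs and 5 were lower, against 14.2% and 11.5% of all genes tested. The same shares stand beside the counts by role and among regulators below. The median log2 fold change of the 52 genes was -0.010. Groups did not overlap for 1 gene that was higher, Gapdh, and for 2 that were lower, Pdk3 and G6pc3, against 3.53% and 2.92% of all genes. The 52 genes did not share the direction that 6 of the 10 had, but the difference between the lists was not tested.

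By role, the enzymes between glucose 6-phosphate and pyruvate had the highest share in 1 direction, with 4 of 10 higher in 3 of 3 pairs, 0 lower and a median of 0.18. Aldoa, the aldolase of muscle and most other tissues, was the most abundant of them at 491, 467 and 581 CPM in wt and 508, 547 and 705 CPM in flt3L-/-, with a log2 fold change of 0.19 (SE 0.138, edgeR adjusted p = 0.973). Gapdh measured 11.8, 12.4 and 12.9 CPM in wt and 13.3, 14.7 and 18.7 CPM in flt3L-/-, a log2 fold change of 0.32 (SE 0.177). That level is far under Aldoa's, and 18.7% of the 81-base stretches of Gapdh occur in 10 or more other genes, while reads with more than 10 hits were not kept. The other glucose carriers went in no common direction, with 1 of 8 higher and 1 lower in 3 of 3 pairs. Slc2a10, a carrier known from arterial walls, measured 52.4, 36.0 and 27.3 CPM in wt and 29.5, 37.8 and 22.2 CPM in flt3L-/-, and the low-abundance Slc2a12 had a log2 fold change of 0.65 (SE 0.343).

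At the pyruvate dehydrogenase step, 1 of 12 genes was higher in 3 of 3 pairs and 2 were lower, Pdk1 and Pdk3. Pdk3 had the smallest p of the 52 genes, with 20.1, 17.3 and 17.5 CPM in wt and 12.3, 13.5 and 14.8 CPM in flt3L-/-. Every flt3L-/- library lay under every wt library. The log2 fold change was -0.44 (SE 0.179), with an edgeR p of 0.0605 and an adjusted p of 0.973. Pdha1, the catalytic subunit of pyruvate dehydrogenase, had a log2 fold change of -0.10 (SE 0.144). Basigin (Bsg), the chaperone that carries the lactate transporters to the membrane, measured 367, 375 and 372 CPM in wt and 344, 458 and 539 CPM in flt3L-/-, and 0 of the 5 genes of the lactate step had a shared direction.

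Hk3, the hexokinase of white blood cells, measured 0.117, 2.72 and 4.54 CPM in wt and 2.62, 5.81 and 0.396 CPM in flt3L-/-, in the order of the macrophage and monocyte sums within each group. Of the 6 other genes at the phosphofructokinase step, Pfkfb1 was lower in 3 of 3 pairs, Pfkp had a log2 fold change of -0.014 (SE 0.141) and Pfkfb2 of -0.34 (SE 0.231). In the pentose phosphate pathway, which draws glucose 6-phosphate off to make NADPH and ribose, 1 of 7 genes was higher in 3 of 3 pairs, Rpia (log2 fold change 0.33, SE 0.320), and Taldo1 was the most abundant (0.11, SE 0.135). Of the 3 gluconeogenic genes tested, G6pc3 was lower in each pair, at 10.1, 11.9 and 10.3 CPM against 14.2, 12.8 and 13.3 CPM in wt (log2 fold change -0.32, SE 0.190).

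Among 13 tested regulators of the pathway, 1 was higher and 3 were lower in 3 of 3 pairs, with a median log2 fold change of -0.091. Txnip, which restrains glucose uptake by pulling carriers off the membrane, was abundant at 462, 783 and 1126 CPM in wt and 1027, 719 and 1208 CPM in flt3L-/- (log2 fold change 0.37, SE 0.293). Ppargc1a, a coactivator of mitochondrial genes, was near the limit of the filter at 0.752 to 2.79 CPM with a log2 fold change of -0.86 (SE 0.398). Its edgeR p was 0.0850 and its adjusted p 0.973.

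**Figure D4:**
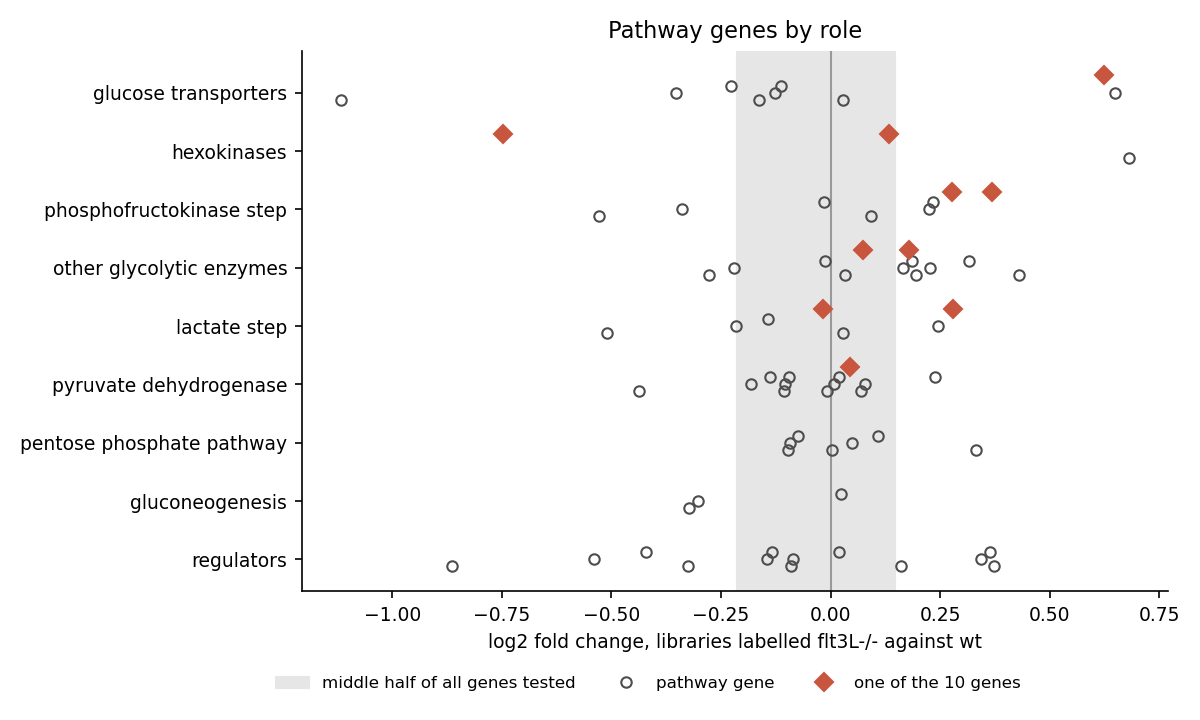
Log2 fold change of the libraries labelled flt3L-/- against wt for 52 other pathway genes and 13 regulators (open circles) and the 10 genes described (red diamonds), in rows by role. The grey band spans the quartiles of all genes tested, from -0.21 to 0.15. Slc2a1 at 0.62 and Hk2 at -0.75 lie farthest from the band among the red diamonds.

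Genes whose log2 CPM followed the 10 most closely were searched over the 6 libraries for the most abundant gene and for the gene with the smallest p. Ldha was followed most closely by Zfp64 (Pearson r = 0.998), Arf1 (0.996) and S100a10 (0.994), over 6 libraries that share 3 sorting days. For Slc2a1, Setmar (r = 0.959) and Rbpms2 (0.951) were among the closest. Among the 10 genes, Pfkl and Ldha had the highest correlation (r = 0.985). Such values are the top of many comparisons over 6 points and describe these libraries.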

How the data were processed

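The authors deposited gene counts without normalization for 3 wt and 3 flt3L-/- libraries. According to the study's methods and the submitters' processing notes, unstranded SMART-Seq v4 libraries were read as single 81-base reads, mapped to mm10 with STAR 2.5.2a with at most 10 hits per read, and counted by qCount of QuasR on Ensembl release 88 where they started in an exon. Equally good hits were assigned at random, so that reads of a gene and its copy, or of genes on opposite strands, are not told apart. Total counts were 24370913 to 31145519, and 3 counts equal 0.109 to 0.127 CPM. This limit covers counting error only, since the reads have no molecular identifiers.

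The 13475 protein-coding genes that exceeded 1 CPM in 2 or more libraries were analysed with edgeR 4.0.16 (R 4.3.3), scaled with TMM, and tested with glmQLFit and glmQLFTest (legacy = TRUE) with the sorting day as a block, as in the study's methods. P-values were adjusted by Benjamini-Hochberg over all genes tested. Intervals are 95% intervals of the fitted value, and differences within pairs are log2 with a prior count of 2. Libraries were paired by the sorting dates in the labels. The deviations from the group means of libraries of the same date correlated with r = 0.180, 0.104 and 0.116 across genes, and those of different dates with r from -0.354 to 0.247, so that the correlations alone do not set the pairs apart. The fit was tested on simulated data. The smallest chi-square per degree of freedom between any 2 of the 6 libraries, of the same or different groups, was 54.6, far above sampling noise. Gene positions, exon lengths and shared exon bases came from GENCODE M21, which held 50376 of the 50600 genes. The other 224 were left out.

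The 10 genes, the pathway and marker lists and the tests were chosen with earlier results of these data known, so that no list was tested as a set. Named beside the 10 genes are the isozymes of the families shown and the targeted gene Flt3l. For each role list, the most abundant gene and the gene with the smallest p are named too. Genes of counts of 5 or fewer were singled out after their values were seen. Abcg2, Pecam1 and Gsn were also chosen afterwards. Alternatives were other scalings, DESeq2 1.42.0, legacy = FALSE, robust dispersions, other filters, all biotypes, no block, each pair left out, an exon length trend removed and, chosen after seeing the data, Pgk1 and Pgk1-rs7 summed. The results of some genes are not reported here.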

Additional observations from a re-analysis of the deposited data

How the results depend on the processing

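With 3 pools a group and a common dispersion of 0.0978, no gene passed the adjusted threshold in any edgeR fit, and DESeq2's Wald test called 21 genes, 6 higher and 15 lower, with 0 of the 10 genes among them. The number of all genes at an unadjusted edgeR p under 0.05 went from 484 to 980 without pair 2, 249 without pair 3 and 262 with no replicate block, and the block changed no call among the 10 genes. The number of the 10 genes at an unadjusted p under 0.05 was 0 to 1 with a pair left out (0 without pair 3) and 3 with an exon length trend removed, Slc2a1, Pfkfb3 and Pfkl. Their median log2 fold change was 0.16 to 0.20 with a pair left out (0.20 without pair 1) and 0.12 to 0.17 in the other fits. The number of genes with the same direction in 3 of 3 pairs was 6, and 5 with library sizes only and with the length trend removed. The direction changed for 3 genes with small values, each when 1 pair was left out. Ldhb ranged from -0.14 to 0.17 (0.17 without pair 1), Pdk4 from -0.065 to 0.14 (-0.065 without pair 1) and Pkm from -0.060 to 0.17 (-0.060 without pair 2). Slc2a1 stayed between 0.48 and 0.74 and Ldha between 0.24 and 0.29 over all alternatives, while Hk2 went from -1.34 without pair 2 to -0.035 without pair 3. The cause of these changes was not tested.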
